A study of Arabidopsis thaliana with 11 samples.

Results

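The SWEET genes outside clade III, the clade of sucrose exporters, were followed here: 9 Arabidopsis genes, each read by 1 probe set, of 13513 probe sets that name 1 gene and 22810 on the array. They were taken by symbol from SWEET1 to SWEET8, SWEET16 and SWEET17. SWEET1, SWEET2, SWEET3, SWEET4, SWEET6, SWEET7, SWEET8, SWEET16 and SWEET17 were found, and the gene AtVEX1, for which SWEET5 is a synonym, was left out by the rule. Their loci are AT1G21460 for SWEET1, AT3G14770 for SWEET2, AT5G53190 for SWEET3, AT3G28007 for SWEET4 and AT1G66770 for SWEET6. SWEET7 is AT4G10850, SWEET8 is AT5G40260, SWEET16 is AT3G16690 and SWEET17 is AT4G15920.

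SWEET proteins are membrane carriers that let sugars move down their concentration gradient in either direction, without coupling to protons. Clades I and II, with SWEET1 to SWEET8, mostly carry hexoses such as glucose, and clade IV, with SWEET16 and SWEET17, sits in the vacuole membrane. In flowers, which import sugar made in leaves, carriers of this family are known for feeding pollen and for exporting sucrose in nectaries.

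Every plant was of Columbia-0 (Col-0), the common wild type of the laboratory, and the study compared organs on 11 Affymetrix ATH1 arrays. Flowers with their buds (4 arrays) and upper stem without siliques or pedicels (4 arrays) were taken 29 days after germination. Rosette leaf (3 arrays) was taken at 15 days, so leaf differed from both other organs in age as well. Days lasted 16 h, under fluorescent light of 125 umol per square metre and second, at 25 C by day and 20 C by night. The titles carried a code, GH or GC: flower and stem had 2 arrays of each, and leaf had 2 GH arrays and 1 GC array. The leaf GH arrays were described as grown in a greenhouse and all other arrays, the GH arrays of flower and stem included, as grown in a controlled system. What the code stood for was not settled by the labels. Separate plants or pools for each replicate are not stated, so each p-value below reflects only how far these arrays varied, and part of that variation may be technical.

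Values are MAS5 signals, a brightness per probe set on a linear scale. A signal of 28.1 was taken as the dim limit, below which a value was read only as low. The share of probe sets above it was 62.4% to 64.6% in flower, 57.5% to 58.8% in stem and 57.5% to 58.4% in leaf. The organs carried their marker genes. The 5 measured tapetum, pollen and reproductive markers included AtVEX1. Their summed signal was 1657 to 1844 in flower, 606 to 926 in stem and 142 to 189 in leaf. Most of the stem sum was the actin gene ACT11, at 213 to 354 in flower, 575 to 885 in stem and 115 to 159.7 in leaf. That of 3 measured secondary wall markers was 78.2 to 112 in flower, 735 to 1637 in stem and 71.4 to 92.2 in leaf. That of 3 measured leaf photosynthesis markers was 2542 to 4132 in flower, 7053 to 10138 in stem and 13410 to 14422 in leaf. The mean log2 ratio of 3' over 5' signal of control genes, a sign of RNA quality, ran between 0.53 and 0.90 on the flower arrays. In stem it lay between 0.01 and 0.24 on 3 arrays and reached 2.13 on stem GH 1, and in leaf it ran between -0.24 and 0.09. Whole organs were measured, so fewer cells of a type and less RNA per cell cannot be told apart.

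**Figure D1:**
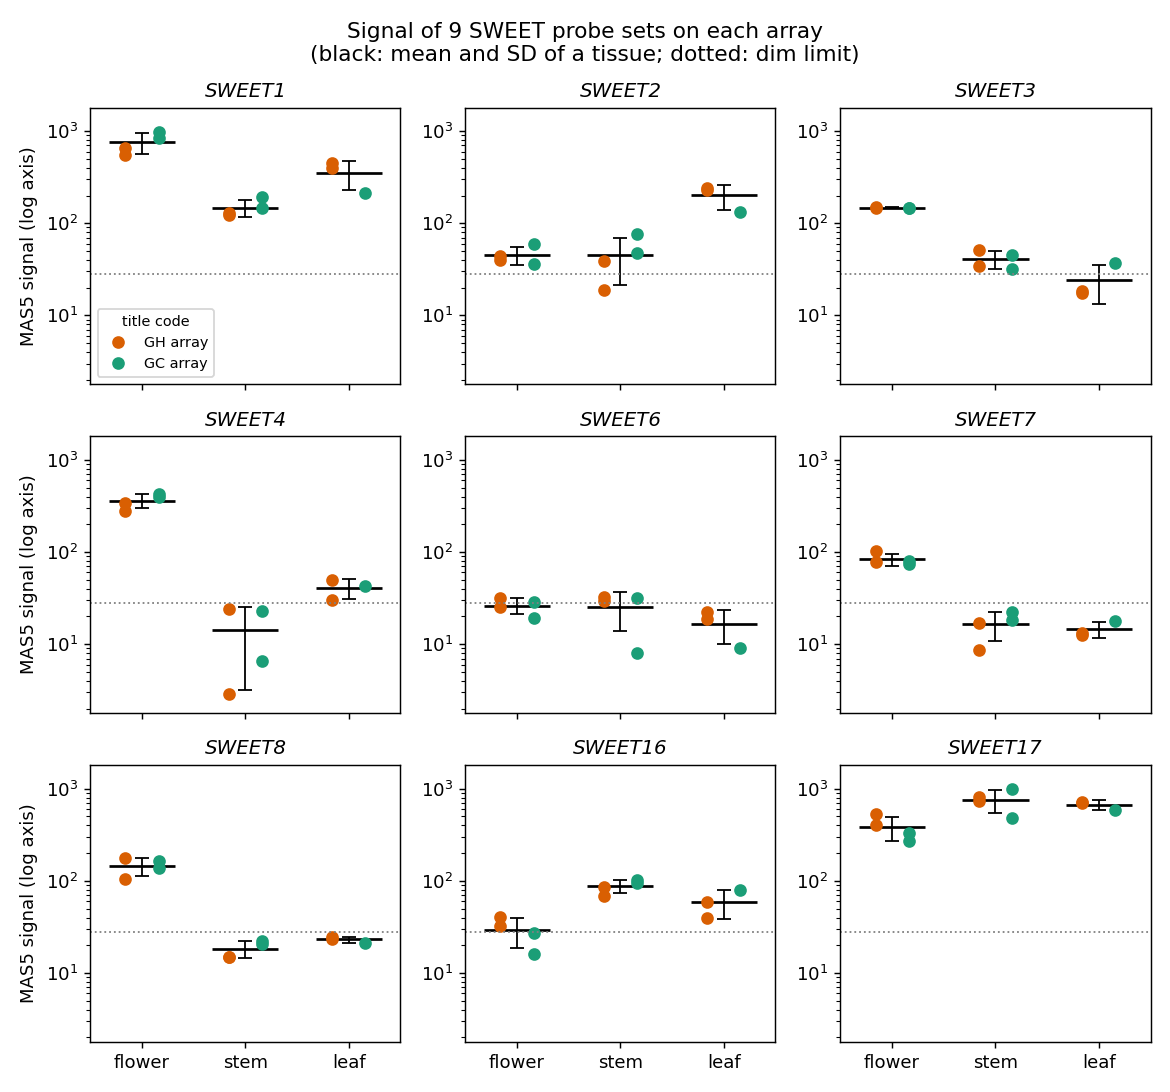
Signal of each of the 9 SWEET probe sets (log axis, MAS5 units) on the 4 flower, 4 stem and 3 leaf arrays; points are arrays coloured by title code, black bars are the mean and SD of a tissue, and the dotted line is the dim limit of 28.1. SWEET1, SWEET3, SWEET4, SWEET7 and SWEET8 lie higher in flower than in either other organ without overlap, SWEET2 lies highest in leaf, and no SWEET6 signal exceeds 32.5.

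The first question was how each carrier differed between flower and rosette leaf. Of the 9 genes, 5 rose in flower (SWEET1, SWEET3, SWEET4, SWEET7 and SWEET8), 3 fell (SWEET2, SWEET16 and SWEET17), and SWEET6 did not pass the test. In the background of all 15718 probe sets tested by limma, 21.3% were called higher and 14.4% lower in flower, at an adjusted p under 0.05. The arrays of both tissues did not overlap for 7 of the 9 genes, against 45.8% of all probe sets. The median log2 fold change was 1.13 over the 9 genes and 0.16 over all probe sets. As deposited, 3354 probe sets were called higher and 2263 lower. With each array centred on its 75th percentile, the median of all probe sets was 0.03 and the split was 2650 higher and 2699 lower. All 9 genes passed the filter on dim values. SWEET7 and SWEET8 passed it through the flower arrays alone.

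Compared with upper stem, taken at the same age, the same 5 genes were higher in flower, SWEET16 and SWEET17 were lower, and SWEET2 and SWEET6 did not pass. The background was 25.5% of probe sets called higher and 15.4% lower. Arrays did not overlap for 6 of the 9 genes, against 37.8% of all probe sets. SWEET7 and SWEET8 count among these, and here too they passed the filter on dim values through the flower arrays alone. The median log2 fold change was 1.88 over the 9 genes (1.56 with values floored at the dim limit) and 0.17 over all probe sets. Centring on the 75th percentile changed the split of calls over all probe sets to 3200 higher and 3056 lower, against 4008 higher and 2413 lower as deposited. Both flower comparisons use the same 4 flower arrays and are not independent of each other.

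Between stem and leaf, 1 gene rose in stem (SWEET3), 3 fell (SWEET1, SWEET2 and SWEET4) and 5 did not pass. The background was 17.9% of probe sets higher and 21.6% lower in stem. Arrays did not overlap for 3 of the 9 genes, against 42.5% of all probe sets. The median log2 fold change was 0.07 over the 9 genes (0.01 with values floored at the dim limit) and -0.07 over all probe sets. This comparison shares its 4 stem arrays and 3 leaf arrays with the other comparisons.

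**Figure D2:**
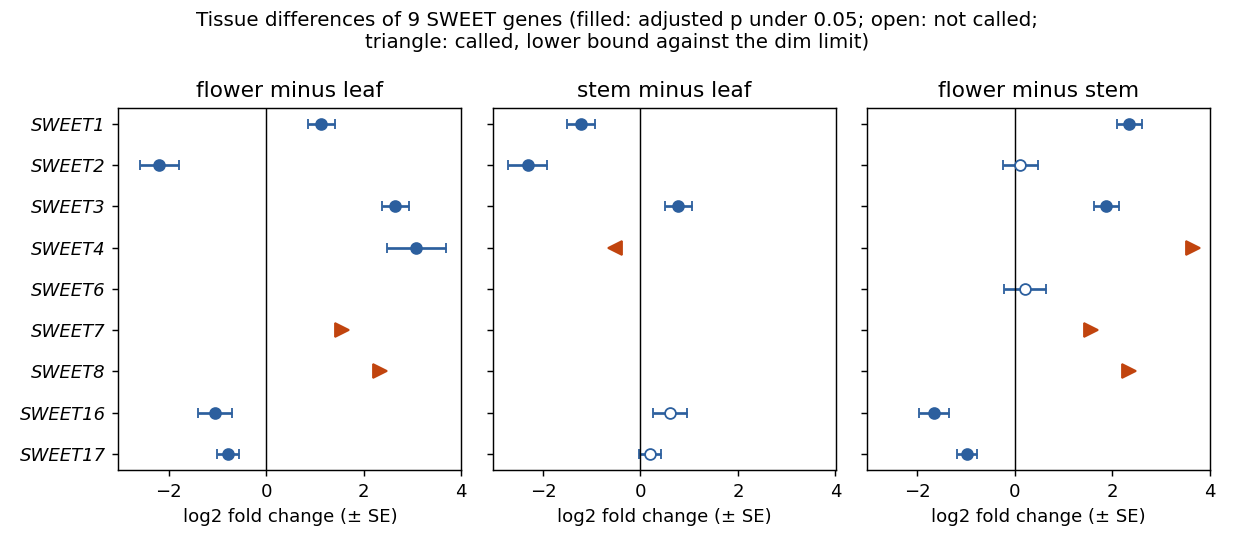
Log2 fold changes of the 9 genes with SE (horizontal axis) in the 3 tissue comparisons, from limma on all 11 arrays; filled points have an adjusted p under 0.05 and open points do not. Triangles are called differences from an organ under the dim limit on every array, drawn at their lower bound with no error bar, and differences from such an organ with no bound above 1-fold are left out. In both flower comparisons SWEET1, SWEET3, SWEET4, SWEET7 and SWEET8 lie right of 0 and SWEET16 and SWEET17 left of it.

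SWEET1 is a glucose carrier of clade I. Its signal in flower was 663 and 551 on the GH arrays and 987 and 845 on the GC arrays. In stem it was 123 and 130.4 on the GH arrays and 191 and 147 on the GC arrays, and in leaf 448 and 398 on the GH arrays and 211 on the GC array. No array of one organ overlapped with another organ, and the order was flower, leaf, stem. The means were 761 ± 193 in flower (SD, n = 4), 148 ± 30.5 in stem (SD, n = 4) and 352 ± 125 in leaf (SD, n = 3). The log2 fold change was 2.35 ± 0.26 (SE) for flower over stem (adjusted p = 3.2e-05, limma), 1.13 ± 0.28 for flower over leaf (0.00786) and -1.22 ± 0.28 for stem over leaf (0.00448). The flower over leaf value was 0.57 without leaf GC 1 and 0.52 on the GH arrays alone, where the call was lost (adjusted p = 0.0818). The stem over leaf value was -1.78 without leaf GC 1, and the call was lost on the GC arrays alone, with 1 leaf array (-0.33, adjusted p = 0.403).

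SWEET2, of clade I, has been placed in the vacuole membrane and is best known from roots. Leaf was its highest organ, with 243 and 231 on the GH arrays and 132 on the GC array. In flower it had 40.2 and 44.0 on the GH arrays and 36.2 and 58.9 on the GC arrays, and in stem 18.9 and 39.3 on the GH arrays and 47.4 and 76.9 on the GC arrays. Every leaf array lay above every array of both other organs, and flower and stem overlapped. The log2 fold change was -2.19 ± 0.40 (SE) for flower over leaf (adjusted p = 0.00123) and -2.31 ± 0.40 for stem over leaf (7.99e-04). Both calls were lost on the GC arrays alone, with 1 leaf array (-1.51, adjusted p = 0.0664, and -1.13, adjusted p = 0.129). Flower and stem, next to each other in the order, did not differ beyond their spread (0.12 ± 0.37, adjusted p = 0.822). The photosynthesis markers moved the same way as SWEET2 between leaf and the other organs, with the sums given above, and their part in the result was not tested.

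SWEET3, also of clade I, is little described. Its flower signals were 147 and 149 on the GH arrays and 147 and 147 on the GC arrays, a mean of 148 ± 0.906 (SD, n = 4). In stem it had 51.8 and 34.3 on the GH arrays and 45.5 and 32.04 on the GC arrays, and in leaf 17.6 and 18.5 on the GH arrays and 36.9 on the GC array. Only the leaf GC array of the 3 leaf arrays lay above the dim limit. SWEET3 rose in flower over leaf by 2.65 ± 0.28 (SE, log2) and over stem by 1.88 ± 0.25, with adjusted p of 2.1e-05 and 1.4e-04. The rise in stem over leaf was 0.77 ± 0.28 (adjusted p = 0.0421), with overlapping arrays. With values floored at the dim limit it was 0.38 and not called (adjusted p = 0.181), as with the 3' over 5' covariate (0.44, 0.214) and with no filter (0.0615). The call was also lost without any 1 of 9 arrays (all but leaf GC 1 and stem GC 2), with adjusted p from 0.0561 to 0.147, and the log2 value was 1.19 without leaf GC 1 and 0.05 on the GC arrays alone.

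SWEET4, of clade II, carries hexoses and was bright in flower and under the dim limit on every stem array. Flower had 339 and 282 on the GH arrays and 399 and 426 on the GC arrays, a mean of 362 ± 64.3 (SD, n = 4). Stem had 2.91 and 24.3 on the GH arrays and 23.0 and 6.62 on the GC arrays. Leaf had 30.4 and 49.8 on the GH arrays and 43.1 on the GC array, all above the limit, so the 3 organs did not overlap. With stem set at the limit, flower was at least 12.7-fold higher than stem (adjusted p = 3.1e-05). Flower exceeded leaf by 3.08 ± 0.61 (SE, log2; adjusted p = 0.00198). Stem was at least 1.43-fold lower than leaf (adjusted p = 0.0182). That call was lost without leaf GH 2 (0.0670) and with the 3' over 5' ratio as a covariate (0.102). It was also lost on the GH arrays alone (0.107), on the compared organs alone (0.0747) and without stem GH 1 and leaf GC 1 (0.131). The GC arrays alone, with 1 leaf array, did not keep it either.

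SWEET7 and SWEET8, both of clade II, were seen above the dim limit in flower only. SWEET7, which has been reported to carry hexoses and xylose, had 102 and 77.2 on the flower GH arrays and 80.3 and 74.0 on the flower GC arrays. It had 8.61 to 22.2 in stem and 12.7 to 17.7 in leaf. With the other organ at the limit, flower was at least 2.94-fold higher than stem and at least 2.94-fold higher than leaf (adjusted p = 1.1e-04 and 1.5e-04). SWEET8, also called RPG1 for ruptured pollen grain, acts in the tapetum and in microspores and is needed for a normal pollen wall. Its signals were 177 and 104 on the flower GH arrays and 164 and 138 on the flower GC arrays. It had 15.0 to 22.5 in stem and 21.4 to 24.8 in leaf, so every array of both organs lay under every flower array. Flower was at least 5.08-fold higher than stem and than leaf (adjusted p = 3.0e-06 and 1.4e-05). Stem and leaf did not differ beyond their spread for either gene (adjusted p = 0.890 for SWEET7 and 0.248 for SWEET8). Both organs lay under the limit, so fitted differences between them are not read as folds.

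Tapetum and pollen markers moved with these genes. ATA27, a beta-glucosidase of the tapetum, had 1013 ± 77.5 in flower (SD, n = 4), 6.46 ± 7.24 in stem (SD, n = 4) and 4.09 ± 2.06 in leaf (SD, n = 3). PLIM2a, a pollen actin-bundling protein, had 319.9 ± 48.6 in flower (SD, n = 4), 2.80 ± 1.32 in stem (SD, n = 4) and 3.24 ± 0.552 in leaf (SD, n = 3). Of the 5 measured markers of that list, 5 rose in flower over leaf, against 21.3% of all probe sets called higher. The list includes AtVEX1, for which SWEET5 is a synonym, so it is not apart from the SWEET family. Over stem 4 of the markers rose, against 25.5% of all probe sets called higher, and the actin gene ACT11 fell. All of the list but ACT11 (ATA27, PLIM2a, AtVEX1 and AMS) passed the filter on dim values through the flower arrays alone. Their rise in flower against those shares was therefore set in part by the filter and is not read as a separate result. The only measured nectary or petal marker, SWEET9, had 240 to 311 in flower, 23.4 to 37.7 in stem and 17.9 to 35.9 in leaf. The part of these cell types in the SWEET values was not tested.

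SWEET6, of clade II, is little described and was dim, at 32.5 or less on every array against the limit of 28.1. It had 25.5 and 31.5 on the flower GH arrays and 28.6 and 19.4 on the flower GC arrays. Stem had 29.4 and 32.5 on the GH arrays and 31.8 and 8.09 on the GC arrays, and leaf had 18.7 and 22.3 on the GH arrays and 9.15 on the GC array. A total of 5 arrays lay above the limit, the highest at 32.5, the 3 organs overlapped, and every leaf array lay under the limit. None of its 3 tissue differences passed, with adjusted p of 0.180 for flower over leaf, 0.309 for stem over leaf and 0.718 for flower over stem. The log2 difference of flower over stem was 0.22 ± 0.43 (SE).

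The vacuolar carriers SWEET16 and SWEET17 of clade IV ran the other way from the flower-high genes. SWEET16, which carries glucose, fructose and sucrose across the vacuole membrane, had 85.6 and 69.1 on the stem GH arrays and 94.3 and 102 on the stem GC arrays. Leaf had 39.1 and 58.9 on the GH arrays and 80.1 on the GC array. Flower had 40.8 and 32.3 on the GH arrays and 27.1 and 16.2 on the GC arrays, of which 2 lay above the dim limit. All flower arrays lay under all stem arrays, and the log2 fold change of flower over stem was -1.66 ± 0.31 (SE, adjusted p = 0.00137). It was -1.08 on the GH arrays alone (adjusted p = 0.0613). Flower over leaf was -1.05 ± 0.34 (adjusted p = 0.0312), with 1 leaf array, GH 1, inside the flower range. Without leaf GC 1 this value was -0.69 and the call was lost (adjusted p = 0.202), as it was without leaf GH 2 (0.0838), flower GC 1 (0.0571) or flower GC 2 (0.0584). It was also lost on the GH arrays alone, where the value was -0.40 (adjusted p = 0.419). The same held with the 3' over 5' covariate (0.0613), on the compared organs alone (0.0663) and without stem GH 1 and leaf GC 1 (0.227).

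SWEET17, a fructose carrier of the vacuole membrane that has been linked to fructose content of leaves, was bright in every organ. Flower had 401 and 529 on the GH arrays and 269.7 and 334 on the GC arrays. Stem had 735 and 816 on the GH arrays and 476 and 992 on the GC arrays, and leaf had 722 and 702 on the GH arrays and 581 on the GC array. Flower lay under every leaf array and overlapped with stem through stem GC 1. The means were 383 ± 111 in flower (SD, n = 4), 755 ± 214 in stem (SD, n = 4) and 668 ± 76.4 in leaf (SD, n = 3). The log2 fold change was -0.97 ± 0.21 (SE) for flower over stem (adjusted p = 0.00309) and -0.78 ± 0.23 for flower over leaf (0.0192). The second call was lost without leaf GC 1 (adjusted p = 0.0706), leaf GH 1 (0.0516) or flower GH 1 (0.0518), after quantile normalization (0.0570) and with the 3' over 5' covariate (0.0787). It was also lost on the GH arrays alone (0.0519) and without stem GH 1 and leaf GC 1 (0.0807). On the GC arrays alone, with 1 leaf array, the log2 value was -0.95 and the call was lost as well. Stem and leaf did not differ beyond their spread for SWEET16 (0.61 ± 0.34, adjusted p = 0.182) or SWEET17 (0.20 ± 0.23, adjusted p = 0.532).

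**Figure D3:**
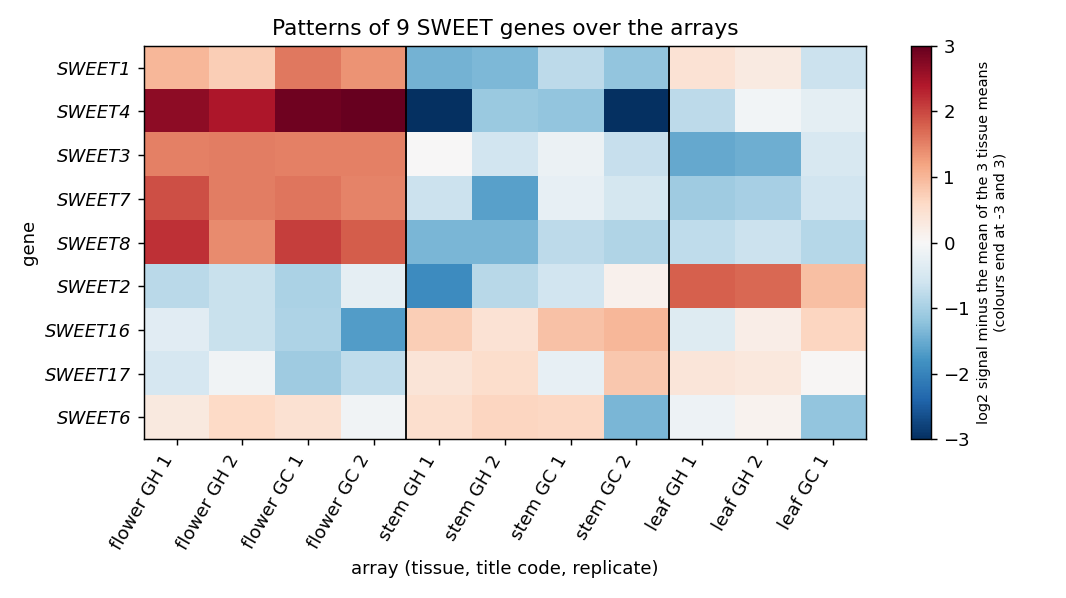
Log2 signal of each gene on each array minus the mean of its 3 tissue means, with flower, stem and leaf arrays from left to right and GH before GC; red is above and blue below that mean, and colours end at -3 and 3. The upper 5 rows are red over the flower arrays, SWEET2 is red over leaf, and SWEET16 and SWEET17 are blue over flower.

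The title code gave no call among the 9 genes. For GH over GC across the organs, limma called 0 of 9 genes, and 0 of them had an unadjusted p under 0.05, with log2 values between -0.40 and 0.74. The background was 0.00636% of probe sets, and 1623 of 15718 had an unadjusted p under 0.05. Within flower 0 of 9 were called, with a background of 0.0254%, and 2 had an unadjusted p under 0.05, as had 763 of all 15718 probe sets. Within stem 0 of 9 were called, with a background of 0.0827%, and 1 had an unadjusted p under 0.05, as had 1825 of all probe sets. Within leaf 0 of 9 were called, with a background of 0.235%, and 2 had an unadjusted p under 0.05, as had 1519 of all probe sets. For the GH effect in flower minus that in stem the count was 0 of 9, with 0% of all probe sets called and 1 of the 9 genes and 761 of all probe sets at an unadjusted p under 0.05.

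SWEET1 lay apart by code in each organ, though in different directions. In flower both GH arrays lay under both GC arrays, with a log2 difference of -0.60 ± 0.19 (SE, adjusted p = 0.901). Both stem GH arrays also lay under both stem GC arrays. In leaf both GH arrays lay above the GC array, with a log2 difference of 1.00 ± 0.24 (adjusted p = 0.138). The GH effect in leaf minus that in flower was 1.60 ± 0.31 (adjusted p = 0.131), and in leaf minus that in stem 1.40 ± 0.31 (adjusted p = 0.163), both short of the threshold. These differences of effects with leaf were added after the data were seen, and leaf had 1 GC array. SWEET2 in stem was lower on the GH arrays (-1.15 ± 0.40, adjusted p = 0.339). The value was -1.67 without stem GH 2, which leaves stem GH 1, with a mean log2 3' over 5' ratio of 2.13, as the only stem GH array. Without stem GH 1 it was -0.62, and with that ratio as a covariate -0.50 (adjusted p = 0.758), neither of them called. SWEET3 in leaf was lower on them (-1.03 ± 0.36, adjusted p = 0.347). SWEET16 in flower was higher on them (0.79 ± 0.34, adjusted p = 0.999). The GH arrays of flower also had the higher mean log2 3' over 5' ratios, 0.90 and 0.80 against 0.53 on both GC arrays. The part of this in the SWEET1 and SWEET16 values was not tested.

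The rest of the family and the sugar pathway were read from lists of symbols. Of 8 genes in the list of clade III and AtVEX1, 7 were measured. In flower over leaf 6 rose and 1 fell, against 21.3% of all probe sets called higher and 14.4% lower. In flower over stem 6 rose and none fell, against 25.5% higher and 15.4% lower. SWEET14 and AtVEX1 count among the genes that rose in both, and they passed the filter on dim values through the flower arrays alone. In stem over leaf 2 fell and none rose, against 21.6% lower and 17.9% higher. SWEET9, the nectary sucrose exporter, rose by 3.34 ± 0.23 (SE, log2) in flower over leaf (adjusted p = 1.0e-06). SWEET13, a sucrose carrier, rose by 1.04 ± 0.22 over leaf (0.00285). AtVEX1, of the pollen vegetative cell, had 115 ± 42.8 in flower (SD, n = 4), 15.8 ± 7.34 in stem (SD, n = 4) and 14.4 ± 4.67 in leaf (SD, n = 3). SWEET11, which exports sucrose for phloem loading in leaves, fell by 2.11 on the log2 scale in flower over leaf (adjusted p = 2.7e-05) and by 2.31 in stem over leaf (1.6e-05), as SWEET2 also fell in both.

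Of 22 listed tonoplast, plastid and polyol sugar carriers, 5 were measured. In flower over leaf 1 rose and 2 fell, against 21.3% of all probe sets called higher and 14.4% lower. In stem over leaf 1 rose and 1 fell, against 17.9% higher and 21.6% lower. In flower over stem 3 fell, against 15.4% lower. With 5 genes measured, these counts are not read as a result of the group. The median log2 value in flower over leaf was -0.34, against 0.16 over all probe sets. TMT1, a proton-coupled importer of sugar into the vacuole, had 185 ± 35.7 in flower (SD, n = 4), 314 ± 53.4 in stem (SD, n = 4) and 326 ± 64.5 in leaf (SD, n = 3). It fell in flower over leaf (-0.88 ± 0.16, adjusted p = 0.00117) and over stem (-0.77 ± 0.15, adjusted p = 0.00151), the same directions as SWEET16 and SWEET17. SFP1, of the ERD6-like sugar carriers, fell in flower over leaf (-2.34 ± 0.22, adjusted p = 1.1e-05). SFP2 of the same group rose in stem over leaf (0.95 ± 0.18, adjusted p = 0.00125), and TMT2 fell there (-0.59 ± 0.21, adjusted p = 0.0399). The lists of SUC and STP proton symporters and of sucrose synthesis had no named probe set here and were not analysed here. Of the sucrose cleavage list only cwINV6 was named, and it was too dim to be tested.

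Likeness of pattern was measured as Pearson's r between log2 signals over the 11 arrays, among 8582 other probe sets of 1 gene. For genes that differ between organs it describes mainly those differences, since the arrays form 3 organ clusters. The 4 highest per gene are given, with no test. The 36 values ran from 0.871 to 0.991. Taken on deviations from the organ means they ran from 0.411 to 0.942. SWEET1 was most like AT5G01090 (r = 0.977), AT4G19430 (0.970), SWEET13 (0.958) and AT4G28440 (0.958). SWEET2 was most like MTP11, a manganese carrier (0.973), FZL, a dynamin-like protein of chloroplasts (0.963), ARD4, an acireductone dioxygenase-like gene (0.961), and AT3G51140 (0.957). SWEET3 was most like AT5G39220 (0.984), AT5G59845 (0.982), AT3G26110 (0.979) and AT5G36260 (0.975).

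For SWEET4 the nearest were AT1G76880 (r = 0.985), AT5G01870 (0.977), AT2G04570 (0.973) and AT3G02640 (0.973). For SWEET7 they were AT5G09300 (0.981), AT5G44440 (0.979), AT3G21570 (0.975) and AT1G76370 (0.975). For SWEET8 they were AT3G21570 (0.991), AT5G45880 (0.988), AT1G23570 (0.985) and the pollen gene PLIM2a (0.985), so AT3G21570 stood among the nearest of both SWEET7 and SWEET8. On deviations from the organ means PLIM2a had 0.411 with SWEET8, the lowest of the 36 values. The dim SWEET6 was nearest to AT1G29980 (0.937), AT4G38410 (0.912), AT1G01830 (0.888) and AT3G02490 (0.871). On deviations from the organ means these were about as high, at 0.942, 0.899, 0.898 and 0.871. The likeness of SWEET6 thus lay in the spread within organs, of values near or under the dim limit. SWEET16 was nearest to AT2G36430 (0.954), AT3G47670 (0.934), SEC10, of the exocyst complex (0.928), and AT4G28770 (0.928). SWEET17 was nearest to AT2G37540 (0.913), AT2G16660 (0.907), AT4G00295 (0.904) and AT1G74910 (0.877). Among the 36 pairs of the 9 genes, r was highest for SWEET7 with SWEET8 (0.961) and lowest for SWEET1 with SWEET16 (-0.901).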

How the data were processed

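Per the submitters' processing notes, the deposited intensity values are MAS5 signals, 1 per probe set and array. The MAS5 version, its scaling and any present or absent calls were not used here. Computed from the values, the mean after trimming 2% at each end was 100.01 on every array. Gene names came from the platform annotation, and 13436 of 13513 gene IDs were found in a RefSeq table of Arabidopsis, which updated their symbols. The 9 members and all lists were chosen with earlier results of these data known.

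Values were used on the log2 scale with no further scaling. The 40th percentile over all arrays and probe sets served as dim limit. Controls (64) were left out, and a probe set was kept when at least 3 of 11 arrays exceeded the limit, which left 15718. limma 3.58.1 (R 4.3.3; lmFit, then eBayes with a trend) gave log2 differences, SE and p-values, adjusted by Benjamini-Hochberg over all kept probe sets. Organs were compared across the 11 arrays with GH or GC as covariate. GH over GC had organ as covariate, and effects within organs used 1 mean per organ and code. "At least" folds replaced a dim organ's values by the limit, on means of log2 signals. Besides the members, up to 4 genes per list with the lowest adjusted p in an organ comparison were named, and the 4 most alike per member. Alternatives changed the normalization, filter, pseudocount, floor, covariates and arrays, 1 at a time except where both stem GH 1 and leaf GC 1 were left out. The number of arrays limits the precision. Cross-hybridisation between family members was not tested.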

Additional observations from a re-analysis of the deposited data

Results flagged for a closer look

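On stem GC 2 the SWEET6 signal was 8.09, and the other stem arrays had 29.4 to 32.5. On the log2 scale its gap to the nearest array was 0.928 of the range of the 4 stem arrays, above Dixon's 95% critical value for 4 values. A gap this wide was looked for in 18 sets of 4 arrays (9 genes in flower and in stem), and chance alone passes about 1 in 20. Without stem GC 2 the log2 difference of SWEET6 for flower over stem was -0.20, against 0.22 with it.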

How the results depend on the processing

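The counts of called SWEET genes kept within 1.5 times of their values in most alternatives. For flower over leaf it was 8, from 6 to 8 with 1 array left out and 5 on the GH arrays alone. For stem over leaf it was 4, from 2 to 4 with 1 array left out, 2 with the 3' over 5' covariate, 2 on the compared organs alone and 0 on the GC arrays alone. For flower over stem it was 7, and 6 or 7 in all 25 alternatives. For GH over GC in stem it was 0, from 0 to 1 with 1 array left out: SWEET2 passed without stem GH 2 (-1.67, adjusted p = 0.0370; -0.62 without stem GH 1). In the other code comparisons it stayed at 0, and those with leaf could not be fitted without leaf GC 1. SWEET3, SWEET4, SWEET7 and SWEET8 kept their calls in both flower comparisons under all 25 alternatives. SWEET6 was left without a value by the filter at the 60th percentile.

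Signs changed only for differences that were not called. SWEET2 in flower over stem had -0.17 after quantile normalization, -0.0281 after centring, -0.0241 with values floored at the dim limit, -0.19 without stem GH 1 and leaf GC 1, -0.39 on the GC arrays, and -0.25 (without stem GH 1) to 0.42 with 1 array left out. SWEET6 there had -0.11 after quantile normalization, -0.0655 with the floor, -0.12 on the GH arrays, and -0.20 (without stem GC 2) to 0.55 with 1 array left out. In stem over leaf SWEET7 had -0.12 with the covariate, -0.0188 without stem GH 1 and leaf GC 1, -0.10 on the GH arrays, and -0.0506 (without stem GH 1) to 0.37 with 1 array left out, with -0.0463 without stem GC 1. SWEET17 there had -0.0143 (without stem GC 2) to 0.34 with 1 array left out, and SWEET8 had 0.0126 on the GC arrays. The SWEET7 and SWEET8 values set organs both under the dim limit against each other and are not read as folds. The cause was not tested.

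Over all probe sets, 5617 were called in flower over leaf and 2612 on the GC arrays alone, and 6222 in stem over leaf and 3027 there. In flower over stem 6421 were called, 4257 on the GC and 2976 on the GH arrays alone. For GH over GC they ranged from 0 to 16 over the organs (1 as reported), 0 to 13 in flower (4), 0 to 1155 in stem (13) and 3 to 86 in leaf (37), with 1155 without stem GH 2. The difference between flower and stem gave 0 to 210 (0), those of leaf with flower 0 to 35 (16) and with stem 0 to 411 (22). The replicate numbers did not pair the samples: in 10 pairs of groups the deviations of same-numbered arrays correlated from -0.07 to 0.07. With a replicate block 8, 4 and 7 SWEET genes were called in the 3 tissue comparisons, and SWEET1 in flower over leaf had 1.14 (adjusted p = 0.0121).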

Other observations

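The flower signals of SWEET3 were closer together than those of any other of the 15718 probe sets kept. Their coefficient of variation was 0.614%, and 0 probe sets had a lower one, against a median of 18.4% over all probe sets in flower. The same probe set was not tight elsewhere, at 22.8% in stem, where the median was 24.2%, and 44.8% in leaf, where it was 17.4%. It was singled out after its values were seen.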
